A study of Columba livia with 12 samples.

Results

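The genes described here are 60 with very low levels in the flight muscle of raced pigeons and the lowest levels there relative to untrained birds, out of 15392 locus tags counted. They were chosen by measured values: a median under 1 CPM (counts per 1000000 counts assigned to genes in that library) over the trained birds, and then the lowest log2 ratio of the trained to the untrained median, with 0.5 CPM added to each. A trained median under 1 CPM was found in 5315 tags, and 434 of these had an untrained median of at least 1 CPM. The difference between the groups chose the members, so its size is given as a description and is not tested.

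RNA was sequenced from m. pectoralis of 12 racing pigeons (Columba livia), 1 library per bird. The untrained group held 5 adult birds with no race training. The trained group held 7 birds with earlier flight training, which had been basketed a day ahead, carried away from the loft and sampled after racing back over 300 km. All birds came from 1 private loft and shared housing and feed. Training, basketing, transport and the race differed between the groups together and cannot be told apart. Birds are named by group and library number.

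The pectoral muscle drives the downstroke of the wing. In pigeons it consists mostly of fast fibres rich in mitochondria, and fatty acids are its main fuel in sustained flight. Transcripts of contractile and mitochondrial proteins take up much of the RNA of such muscle, so a gene at a few CPM is a minor transcript of the whole tissue. In bulk tissue, fewer cells of a type and less RNA per cell cannot be told apart. The files identify genes by locus tag alone and 0 of the 15392 tags matched the gene table used here, so no member has a name, a known function, a sequence or a position below, and the tissue and cell type markers were not analysed here.

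Library totals ranged from 13611534 to 29169918 counts, so that 3 counts, the limit a count of 0 allows, were worth 0.103 to 0.220 CPM. The lowest total belonged to trained bird 13. Over all 14484 tags with a count the median log2 ratio of trained to untrained was 0.00. Untrained bird 5 stood with the trained birds in most of the members, and trained bird 13 had more members without a count than any other bird. Group sums, shares and counts of calls are given below with and without the bird concerned.

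The members were low in trained birds but seldom absent. Their untrained medians ran from 1.27 to 53.8 CPM, with a median of 3.96 CPM, and their trained medians from 0 to 0.980 CPM, with a median of 0.437 CPM. In untrained birds, 6 members had a median of at least 10 CPM, 17 lay from 5 to 10 CPM and 37 lay under 5 CPM. The members were thus mostly modest genes also in untrained birds, since 8471 tags had a higher untrained median than the middle member and only 3 of the 60 exceeded the middle tested gene, at 16.8 CPM. The log2 ratio of medians ran from -5.36 to -1.82, with a median of -2.27, a 4.82-fold difference on the scale with 0.5 CPM added. That added value lowers the fold of such weakly expressed genes. It was at least 4-fold in 39 members, against 1.17% of the genes tested, and at least 8-fold in 11; as this ratio chose the members, nothing is read from that excess.

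The name of a silenced group describes the members only in part. As the rule asks for a trained median under 1 CPM, most trained values of each member lie under it by the choice. Of the 420 single values in trained birds, 341 (81.2%) lay under 1 CPM and 48 were 0. Without trained bird 13, 287 of 360 (79.7%) lay under 1 CPM and 28 were 0. In 46 members the middle trained library still had more than 3 counts. All 7 trained birds were under 1 CPM in 16 members, while 44 members reached 1 CPM in at least 1 trained bird and 4 members reached 5 CPM. A count of 0 in every trained bird was found in 1 member, A306_00011312.

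**Figure D1:**
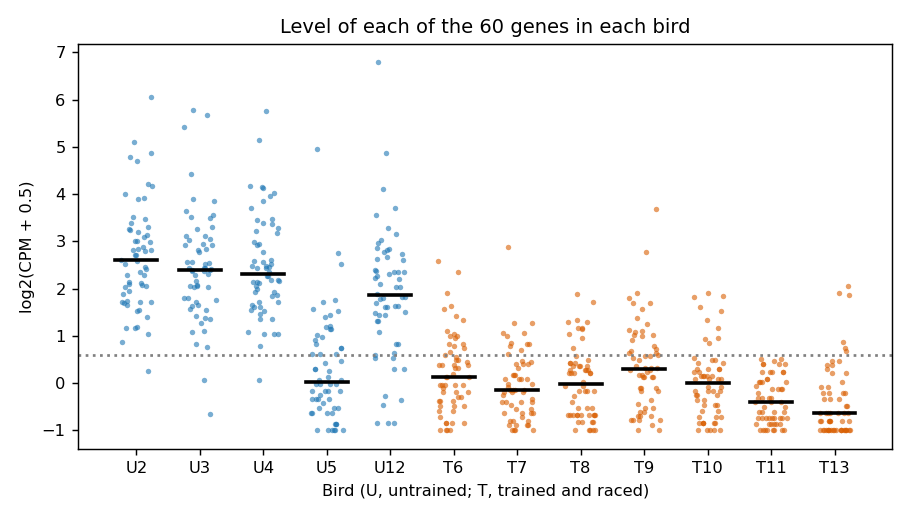
Level of each of the 60 genes (points) in each bird, as log2(CPM + 0.5), with the median as a bar; U marks untrained and T trained, raced birds, and the dotted line is 1 CPM. Untrained birds 2, 3, 4 and 12 have medians of 3.14 to 5.55 CPM, and untrained bird 5, at 0.517 CPM, lies among the trained birds at 0.147 to 0.729 CPM.

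Summed over the 60 genes, the level was 513 CPM in untrained bird 2, 460 CPM in bird 3, 430 CPM in bird 4, 365 CPM in bird 12 and 87.4 CPM in bird 5. In trained birds the sum was lowest in bird 11 at 19.3 CPM, had its middle value in bird 8 at 40.8 CPM and was highest in bird 9 at 71.1 CPM. The sums of the groups did not overlap, but untrained bird 5 lay much nearer to trained bird 9 than to the next untrained bird. A single gene, A306_00012874, named after its values were seen, gave 30.6 CPM of the sum of bird 5. It gave 3.27 CPM of the sum of trained bird 9, so the lack of overlap rests on this gene. As the tags were chosen by the group medians of the same libraries, nothing is read from the distance between the groups. The means were 371 ± 167 CPM (SD, n = 5) in untrained and 41.7 ± 17.4 CPM (SD, n = 7) in trained birds. They were 442 ± 62.0 CPM (SD, n = 4) without untrained bird 5 and 44.5 ± 17.3 CPM (SD, n = 6) without trained bird 13. A few strong genes weighed in these sums, since the 4 members with the highest untrained medians held 31.6% of the summed level of the untrained birds.

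A306_00010530 had both the lowest ratio and the highest untrained median of all members. It stood at 25.4 CPM in untrained bird 2, 54.3 in bird 3, 53.8 in bird 4, 110 in bird 12 and 2.91 in bird 5. In trained birds it ran from 0.0744 CPM in bird 7 through a median of 0.825 CPM to 3.23 CPM in bird 13. Untrained birds 2, 3, 4 and 12 thus lay far above every trained bird, and untrained bird 5 lay inside the trained range. The log2 ratio of its medians was -5.36, and the same without untrained bird 5 or bird 2. It was -4.93 to -4.92 without untrained bird 3, 4 or 12, and -5.40 to -4.96 with 1 trained bird left out.

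A306_00005580 had the next lowest ratio. Its untrained values were 28.6 CPM in birds 2 and 12, 42.5 in bird 3, 15.8 in bird 4 and 0.394 in bird 5. Its trained values ran from 0 CPM in bird 13 through 0.464 to 2.48 CPM in bird 9. Bird 5 lay under the trained median of this gene, and the log2 ratio was -4.91.

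A306_00000780, second by untrained median, differed in a further bird. It was at 65.6 CPM in untrained bird 2, 50.4 in bird 3 and 35.0 in bird 4, but at 0.394 in bird 5 and 0.944 in bird 12. The trained values ran from 0.0372 CPM in bird 7 through 0.825 to 1.96 CPM in bird 8. Here 2 of the 5 untrained birds lay inside the trained range, and the median, with a log2 ratio of -4.74, reflected the other 3. Leaving out untrained bird 2 or bird 3 gave a ratio of -3.80, and leaving out bird 4 gave -4.30. It was -5.03 without untrained bird 5 or bird 12. With 1 trained bird left out it was -5.00 to -4.40, the latter without trained bird 7, 10 or 13.

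The members with the fewest reads in trained birds were A306_00011312 and A306_00015343. A306_00011312 had 27 counts in untrained bird 2, 37 in bird 3, 29 in bird 4, 6 in bird 12 and 0 in bird 5, and 0 counts in each of the 7 trained birds. Its untrained median of 1.27 CPM was at least 7.92-fold higher than the level that 3 counts stand for in the middle trained library, 0.160 CPM. A306_00015343 was at 14.3 CPM in untrained bird 2, 5.31 in bird 3, 8.81 in bird 4, 1.28 in bird 12 and 0.197 in bird 5. It had 7 counts over all trained birds, with a highest value of 0.213 CPM in bird 6. In both genes untrained bird 5 was at the trained level, and bird 12 came next to it among the untrained birds.

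At the limit of the rule the values changed little. The last gene taken, A306_00011369, had medians of 2.64 CPM in untrained and 0.392 CPM in trained birds and a log2 ratio of -1.816. The first gene left out, A306_00007209, had 2.85 and 0.457 CPM and a log2 ratio of -1.805.

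A few arrangements of the untrained birds covered most of the members. In 33 of the 60, untrained birds 2, 3, 4 and 12 lay above every trained bird and bird 5 did not. In 9 members only birds 2, 3 and 4 lay above every trained bird, and in 6 members all 5 untrained birds did. The remaining 12 members showed 8 other arrangements. The arrangements were described after the values were seen. A high untrained median needs most untrained birds to be high, so the rule itself favours such arrangements. Full separation was found in 1.42% of all genes tested, and shares over all genes were not computed for the counts of 33 and 9. Nothing is read from these counts about the members.

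**Figure D2:**
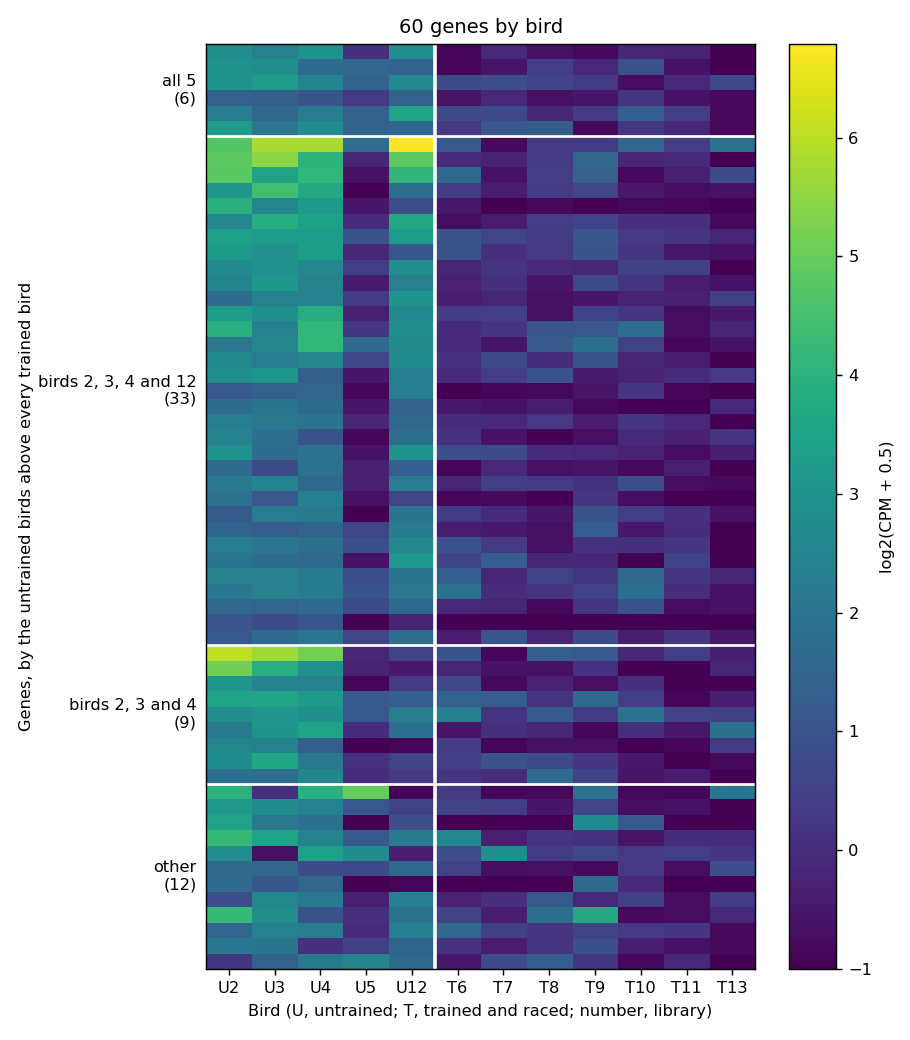
Level of the 60 genes (rows) in the 12 birds (columns), as log2(CPM + 0.5), grouped by which untrained birds lay above every trained bird; the number of genes is in brackets. The column of untrained bird 5 is dark like those of the trained birds in most rows, being not above every trained bird in 51 of 60. Untrained bird 12 is not above every trained bird in the block of 9 genes. It still reaches 4.28 CPM in A306_00006050, which was named after its values were seen.

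In the block of 33 genes, the median level over genes was 4.80 CPM in untrained bird 2, 4.73 in bird 3, 4.04 in bird 4 and 4.61 in bird 12, against 0.394 CPM in bird 5. In the trained birds this median ran from 0.147 CPM in bird 13 to 0.709 CPM in bird 9. The 4 higher untrained birds were close together in some of these genes. A306_00010815, picked after its values were seen as the member with the smallest spread among them, was at 9.94, 9.36, 9.20 and 9.27 CPM in untrained birds 2, 3, 4 and 12, at 1.48 CPM in bird 5, and at 0.367 to 1.61 CPM in trained birds. Over all 60 members the highest of these 4 birds was 3.35 times the lowest in the median, and 15 members stayed within 2-fold.

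In the 6 members with full separation, untrained bird 5 still had the lowest median of the untrained birds, at 2.17 CPM against 4.17 to 7.00 CPM. A306_00005654, named after its values were seen because it had the lowest ratio of the 6, was at 6.53 CPM in untrained bird 2, 4.70 in bird 3, 7.37 in bird 4, 6.78 in bird 12 and 0.542 in bird 5. Its highest trained value was 0.409 CPM in bird 7. Untrained bird 5 and trained bird 7 both had 11 counts of this gene. Bird 5 was thus above trained bird 7 only through its smaller library total, and it was far under the other untrained birds. Full separation was found in 1.42% of all 11047 genes tested, and, as the rule used this contrast, nothing is read from the members' share of 6 in 60. Without trained bird 13 the count was 9, against 1.71% of all genes tested.

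Untrained bird 5 was the lowest untrained bird in 53 of 60 members. It was not above every trained bird in 51, lay at or under the trained median in 24, and had under 1 CPM in 38. Over all genes tested it was not above every trained bird in 90.9%, so the count of 51 by itself sets the members apart from no other genes. Set against the median of the other untrained birds, its level had a median log2 ratio of -2.32 and was at least 4-fold lower in 37 members. The exceptions were few. Bird 5 exceeded the median of the other untrained birds in 3 members, among them A306_00012874. Shares over all genes were not computed for the counts of 53, 24, 38, 37 and 3. These counts therefore do not show whether bird 5 is particular in the members.

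A306_00012874, the next by ratio after the first pair and described after its values were seen, split the birds of both groups. It was at 15.6 CPM in untrained bird 2, 15.0 in bird 4 and 30.6 in bird 5, but at 0.549 in bird 3 and 0.0555 in bird 12. Among trained birds it was at 3.67 CPM in bird 13, 3.27 in bird 9 and 0.747 in bird 6, with a median of 0.0653 CPM. A306_00006064, which had one of the highest values of any trained bird, showed a like split of the untrained birds. It was at 6.53 CPM in untrained bird 2, 10.03 in bird 4 and 6.26 in bird 5, but at 0.137 in bird 3 and 0.278 in bird 12. Trained bird 7 had 6.85 CPM of it, above untrained bird 2, while the other trained birds ran from 0.661 to 1.28 CPM. The log2 ratio of this gene, -2.35, was -1.56 without untrained bird 5 and -1.51 without untrained bird 2 or bird 4. It was -2.38 without untrained bird 3 or bird 12. In both genes some untrained birds lay as low as trained birds, and the groups overlapped.

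Untrained bird 12 departed from birds 2, 3 and 4 in a part of the members. Against the median of those 3 birds its median log2 ratio over the 60 genes was -0.35. It was higher than that median in 22 members and at least 4-fold lower in 12. Bird 12 was not above every trained bird in 16 members, and in 14 of the 16 bird 5 was not either. Over all genes tested bird 12 was not above every trained bird in 81.7%, and neither bird was in 76.2%. As both birds had a part in the choice of the members, nothing is read from this contrast. Birds 2, 3 and 4 were all at 1 CPM or more in 56 members. For the counts of 22, 12 and 56, shares over all genes were not computed either. A306_00002294, named after its values were seen, is an example with low values in both birds: it was at 33.9, 14.5 and 7.20 CPM in untrained birds 2, 3 and 4, at 0.345 CPM in bird 5 and at 0.222 CPM in bird 12, with trained birds at 0 to 0.591 CPM.

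**Figure D3:**
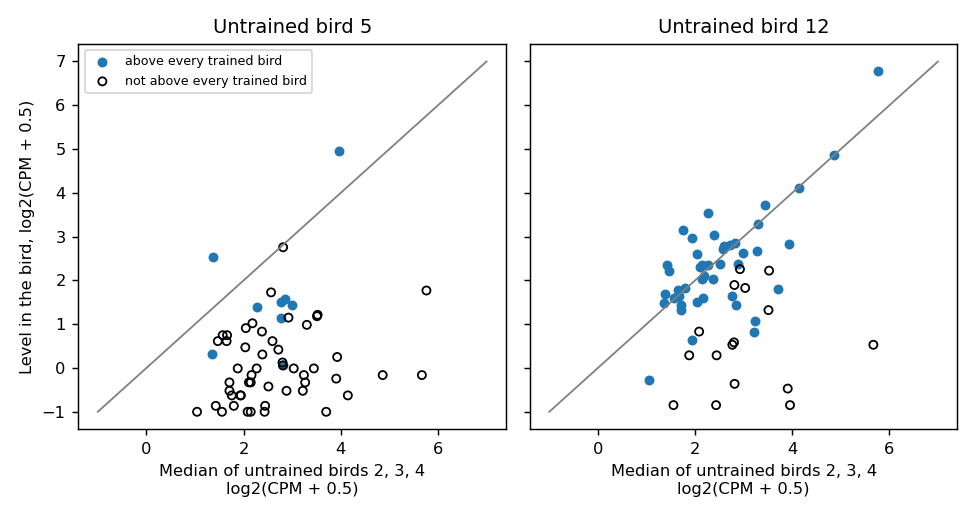
Level of the 60 genes in untrained bird 5 (left) and untrained bird 12 (right) against the median of untrained birds 2, 3 and 4, all as log2(CPM + 0.5); the line marks equal levels and open points are genes in which the bird was not above every trained bird. Bird 5 lies under the line in nearly all genes, with 51 open points, while bird 12 lies along it in most and has 16 open points.

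Trained birds also differed among themselves. Members with a level of at least 1 CPM numbered 22 in trained bird 9, 18 in bird 6, 12 in bird 7, 11 in bird 8, 10 in bird 10, 6 in bird 13 and 0 in bird 11. Trained bird 9 was the highest trained bird in 19 of 60 members. Trained bird 13 had no count in 20 members, against 2 to 8 in the other trained birds, and it had the smallest library and the fewest genes detected of all birds; their part in this was not tested.

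Single trained birds held much of the remaining expression of some members. A306_00000203 was at 10.6 CPM in untrained bird 2, 3.74 in bird 3, 3.10 in bird 4, 1.28 in bird 12 and 0 in bird 5. Of its 193 counts in trained birds, 162 were in bird 9 and 31 in bird 10, and the other 5 trained birds had 0. A306_00000116 reached the highest value of any member in a trained bird, 12.4 CPM in bird 9, against 3.20 CPM or less in the other trained birds and 18.0, 6.51, 1.55, 3.22 and 0.542 CPM in untrained birds 2, 3, 4, 12 and 5. Bird 9 thus lay above 4 of 5 untrained birds in this gene, which the rule kept because the trained median was 0.441 CPM.

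One untrained bird could also stand out. A306_00007418 was at 17.0 CPM in untrained bird 4, against 6.11 in bird 12, 5.42 in bird 3, 3.76 in bird 2 and 2.81 in bird 5, and trained birds ran from 0.0516 through 0.480 to 2.99 CPM. The values of birds 5 and 2 lay just under and just over the highest trained bird.

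In the comparison of all genes, 53 of the 60 members had enough counts to be tested and 31 passed the threshold of 0.05 as lower in the trained group (edgeR, quasi-likelihood, two-sided, adjusted over 11047 genes after Benjamini and Hochberg). Of all genes tested, 3.48% were called lower. The rule used the same contrast, so these counts describe the members and nothing is read from the excess. All 53 had a negative log2 fold change in the fit, and 22 did not pass. The other 7 members, including A306_00005654, A306_00011312 and A306_00015343, fell short of the count filter, which asks for enough counts in as many libraries as the smaller group holds. DESeq2 called 45 members, with 6.81% of all genes called lower.

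The count of calls moved widely with single birds. Without untrained bird 5, 59 members were tested and 50 were called, against 7.15% of all genes, and birds 2, 3, 4 and 12 lay above all trained birds in 39 members, against 7.36% of all genes. Without untrained bird 2, 11 members were called, against 0.984% of all genes. Without untrained bird 3 the count was 9, against 0.761%, without bird 4 it was 11, against 0.787%, and without bird 12 it was 18, against 1.30%. It was 12 without trained bird 11, against 1.41%, and 33 without trained bird 13, against 5.49%. The calls over all genes thus moved in the same direction as those of the members in each of these fits. By class, 22 of the 29 tested members with birds 2, 3, 4 and 12 on top were called, and 3 of the 8 tested with birds 2, 3 and 4. Calls were made in 5 of the 5 tested with all untrained birds on top, and in 1 of the 11 tested with another arrangement. The classes were set by the same values that the fit compares, so nothing is read from the differences between them.

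To read the members in birds that had no part in the choice, the rule was applied 12 times with 1 bird left out, and that bird was then looked up in the 60 tags chosen from the other 11. The choice itself moved moderately, sharing 49 to 54 tags with the full one. Of its 60 tags, untrained birds 2, 3 and 4 had 2, 5 and 4 under 1 CPM, and bird 12 had 19. The trained birds had from 30 under 1 CPM, in bird 9, to 55, in bird 11, with 36, 41, 44, 46 and 52 in birds 6, 7, 8, 10 and 13. Untrained bird 5 had 39, inside the range of the trained birds and above every other untrained bird. With means in place of medians in the rule, the counts were 17, 18 and 16 in untrained birds 2, 3 and 4, 31 in bird 12, 44 in bird 5 and 40 to 53 in trained birds.

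**Figure D4:**
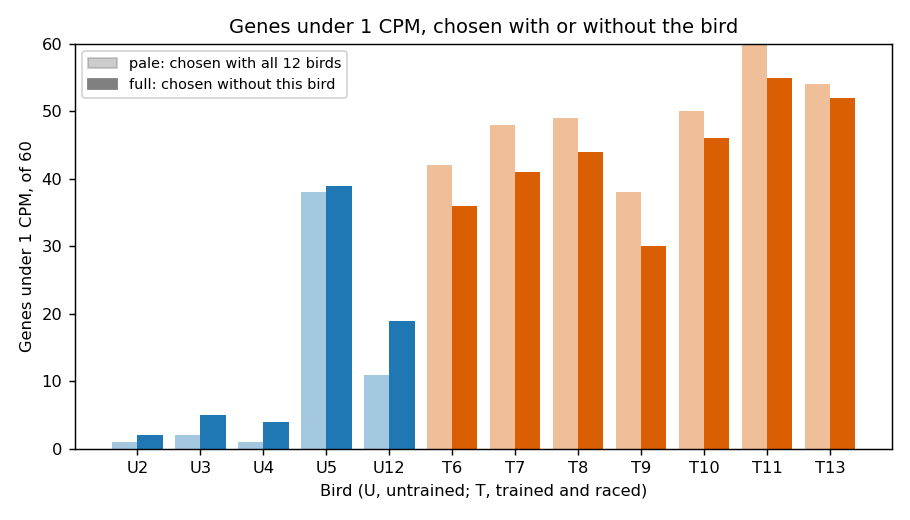
Number of the 60 chosen genes under 1 CPM in each bird, with the genes chosen from all 12 birds (pale bars) or from the 11 others (full bars); U marks untrained and T trained, raced birds. Left out of the choice, trained birds have 30 to 55 genes under 1 CPM, untrained birds 2, 3 and 4 have 2 to 5, bird 12 has 19 and bird 5 has 39; with means in place of medians, birds 2, 3 and 4 have 16 to 18 and bird 12 has 31.

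Levels of the birds left out were also set against the medians of the other birds. Only the level of the bird left out is free of the choice. The medians it is set against are those by which the rule chose the tags, so the size of these ratios carries the choice. The median log2 ratio of a trained bird to the untrained median of the 60 tags chosen without it lay between -2.60 in bird 13 and -1.92 in bird 9. It was 0.16, 0.07 and 0.04 in untrained birds 2, 3 and 4, -0.82 in bird 12 and -2.32 in bird 5. Against the trained median, bird 5 was at 0.15 and bird 12 at 1.79. Trained birds 6, 7, 8, 9 and 10 stood above the median of the other trained birds in the tags chosen without them, with median log2 ratios of 0.12 to 0.52, and birds 11 and 13 stood below it, at -0.06 and -0.42.

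Bird 5 was also set against the trained birds in other genes. The further sets of tags were chosen from all 12 birds, bird 5 among them, so these are no readings in a bird left out. In the next 60 tags by the same ratio, with a median log2 ratio of -1.51, bird 5 was again not above every trained bird in 51. With the groups exchanged in the rule, the 60 tags with an untrained median under 1 CPM and the highest ratios, from 1.84 to 5.19, had bird 5 at or above the lowest trained bird in 48. Over all genes tested, bird 5 was not above every trained bird in 90.9% and not below every trained bird in 93.2%, so by themselves these counts do not set the chosen sets apart. Bird 12 was not above every trained bird in 16 members and in 21 of the next 60, against 81.7% of all genes tested. It was not below every trained bird in 17 of the exchanged set, against 86.7% of all genes tested. Bird 12 had a part in choosing all of these sets, so nothing is read from its counts against the shares over all genes. The counts for both birds rest on the highest or lowest trained bird, and bird 12 lay at or under the trained median in only 3 members. The sets all come from the same libraries and the same contrast, and differences between them were not tested.

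The members were scattered over the tag numbers. No members had consecutive numbers, the smallest gap was 4, between A306_00004311 and A306_00004315 (named after the gaps were seen), and 2 pairs lay within 10 numbers. Of the 108 tags with a count that stood directly beside a member by number and were no members, the median log2 ratio was -0.02, close to 0.00 in all tags with a count. Among them 10 (9.26%) were at least 2-fold lower in trained birds, against 5.48% of all tags with a count, and 5 of the 82 tested were called lower (6.10%, against 3.48% of all genes tested; edgeR). At 2 to 5 numbers from a member, 27 of 445 tags (6.07%) were at least 2-fold lower. These small differences were not tested, and how tag numbers follow the genome is not given in the sources used here.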

How the data were processed

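Per the labels' protocols, TriReagent was used for total RNA and the TruSeq kit for libraries. The authors deposited raw whole-number counts per locus tag, 1 file per bird. DESeq2, HTSeq, STAR, FastQC 0.11.5 and bcl2fastq 2.20 are listed, without their roles, per the submitters' processing notes. The sources used here give no build, annotation or strand setting, so overlapping or antisense genes and near-identical copies may share reads.

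The 5 summary rows were left out: they held 18.5% to 22.2% of a library's reads as outside genes, 4.56% to 6.25% as not uniquely aligned and 0.174% to 0.353% as ambiguous between genes. CPM is the count divided by the library's total over genes, times 1000000. All genes were fitted with edgeR 4.0.16 in R 4.3.3 (filterByExpr, TMM, robust dispersions, quasi-likelihood F test, two-sided, Benjamini-Hochberg, threshold 0.05), checked on simulated data; DESeq2 1.42.0 was an alternative. Groups came from the labels, which give no batch; each library is from a different bird, per the series' design text. No pair of libraries within a group was a repeat: the chi-square per degree of freedom over genes with at least 20 counts was at least 62.1 in 31 pairs. It was 234 to 315 in pairs with untrained bird 5, against 62.1 to 178 in other untrained pairs. Pairs with trained bird 13 had 186 to 459, against 74.4 to 258 in other trained pairs. Counting limits cover counting error only, since reads are not independent molecules.

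The members, lists and tests were chosen with earlier results of these data known. Gene and marker lists could not be applied without gene names. The tags named in the text are the 2 members with the lowest ratio, the 2 with the highest untrained median, the 2 with the fewest trained counts, the tags at the limit, the 2 with the largest ratio of the highest to the second untrained bird and the 2 with the highest single trained value; others are marked as picked after their values were seen. Alternatives were other scalings, filters, pseudocounts, limits on the trained median, means for medians and left-out birds.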

Additional observations from a re-analysis of the deposited data

Results flagged for a closer look

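Within each group of birds, values far from the others were looked for in 5 summaries of the members and the 11 named tags, by the gap to the nearest bird as a share of the group's range. Of 32 sets of values, 9 held such a value. The limit used for this gap flags about 1 in 20 sets of normally distributed values by chance. Levels and counts here are often skewed or tied, several tags were named for a single high bird and the summaries share their libraries. The count is therefore not set against that rate. Untrained bird 5 had 6 members at 0 counts, where each other untrained bird had 0, and 38 members under 1 CPM, against at most 11. Trained bird 13 had 20 members at 0 counts, against at most 8 in the other trained birds.

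The other values were those of single tags. Trained bird 9 stood apart with 2.48 CPM of A306_00005580 (next trained bird 0.784), 6.38 CPM of A306_00000203 (next 1.73) and 12.4 CPM of A306_00000116 (next 3.20). Trained bird 7 stood apart with 6.85 CPM of A306_00006064 (next 1.28), and untrained bird 4 with 17.0 CPM of A306_00007418 (next 6.11). Trained bird 6 had 0.213 CPM of A306_00015343 (next 0.0653), a value that rests on very few counts.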

How the results depend on the processing

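Of 76 recomputed counts and 221 recomputed log2 ratios, 280 stayed within 1.5 times the count or within 1 SD between birds of the ratio, and 17 moved further. No log2 ratio of a named tag or of the members' median changed sign. These tags lie at the low end of the same ratio by the rule, so nothing is read from the unchanged sign. The 31 members called lower became 28 to 45 under DESeq2, other scalings, filters and dispersions, 9 to 50 with 1 bird left out, and 51 without untrained bird 5 and trained bird 13 together. The 6 members with full separation became 6 to 39 with 1 bird left out and 41 without both. Shares over all genes were computed for only a part of these settings, and not without both birds. Without untrained bird 5 alone, the share of all genes called lower rose from 3.48% to 7.15%. Nothing is therefore read from the counts of 51 and 41. Applied again, the rule kept 49 to 54 of the 60 with 1 bird left out, but 35 with means for medians. With a trained median under 0.5 CPM it kept 35, which by the rule are the members already under that limit. With means, the counts under 1 CPM in the bird left out rose to 17, 18, 16 and 31 in untrained birds 2, 3, 4 and 12; the cause was not tested. The median log2 ratio ranged from -2.69 to -1.67, and that of the tags beside a member from -0.12 to 0.00. With pseudocounts of 0.25 and 1 CPM, the log2 ratio of A306_00011312, at 0 in trained birds, was -2.60 and -1.18. No paired analysis was possible, as each bird is in only 1 group and the labels give no pairing between birds. Depth limits the lowest levels, as 3 counts are worth 0.103 to 0.220 CPM.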
